A study of Mus musculus with 6 samples.

Results

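The genes described here are the receptors and ligands of neurotrophin and GDNF signaling in the embryonic striatum, namely *Ntrk2*, *Ntrk3*, *Ngfr*, *Sort1*, *Bdnf*, *Ntf3*, *Gfra1*, *Gfra2* and *Ret*. They were chosen by name, without use of their measured levels. Of these 9 genes, 7 had a row among the 15168 genes listed, and *Bdnf* and *Ntf3*, the ligand genes, had none and were not analysed here. All 7 with values passed the filter on low values, as did 15102 of the 15168 listed genes. With *Sp9* overexpressed in the lateral ganglionic eminence (LGE), none of the 7 receptors differed from *Dlx5/6-CIE* controls beyond the spread between libraries, and their levels spanned more than 2 orders of magnitude.

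Expression was measured by bulk RNA-seq of mouse LGE, the embryonic primordium of the striatum, at E16.5. The overexpression group was 3 libraries of *Dlx5/6-CIE; Rosa-Sp9-OE/+* and the control group 3 libraries of *Dlx5/6-CIE*. Both groups carried *Dlx5/6-CIE*, a transgene in which *Dlx5/6* regulatory sequence drives Cre recombinase and EGFP. Only the overexpression group carried 1 copy of *Rosa-Sp9-OE*, in which Cre removes a LacZ and stop cassette so that a CAG promoter at the *Rosa26* locus drives *Sp9*, encoding a zinc finger transcription factor. Cells that never expressed Cre, such as blood and vessel cells, were part of the dissected tissue and kept the cassette closed. The methods describe littermate controls, but the sources read here do not state if 1 library is 1 embryo, so the spread and the p-values refer to these libraries.

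Neurotrophins act through Trk receptor tyrosine kinases and through the p75 receptor. *Ntrk2* encodes TrkB, the receptor of BDNF, and *Ntrk3* encodes TrkC, the receptor of neurotrophin-3. *Ngfr* encodes p75, which pairs with sortilin, the product of *Sort1*, to bind immature neurotrophins. BDNF reaches striatal neurons largely from cortical axons and supports medium spiny neurons (MSNs) through TrkB. Ligands of the GDNF family first bind a lipid-anchored co-receptor, GFRα1 for GDNF (*Gfra1*) or GFRα2 for neurturin (*Gfra2*), and the complex then activates the receptor tyrosine kinase RET (*Ret*).

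*Sp9* checked the labels. It was at 178, 268 and 305 CPM (reads per gene scaled to the authors' effective library size) in overexpression libraries 1, 2 and 3, against 130, 147 and 170 CPM in control libraries 1, 2 and 3. All overexpression libraries lay above all controls, with a difference of 0.72 on the log2(CPM + 0.5) scale (standard error 0.19, adjusted p = 0.788 from limma and 0.00669 from DESeq2). Between 21767904 and 25126847 reads per overexpression library and between 19410365 and 22174028 per control library fell in the listed genes. *Xist* was at 1.37 to 2.33 CPM in the overexpression libraries, against 2227 and 2191 CPM in control libraries 1 and 2 and 2.35 CPM in control library 3, and the Y-linked gene *Kdm5d* showed the opposite pattern, so the groups differ in their mix of sexes. Markers of MSNs were abundant in every library. Their sum over the 7 genes shared by MSNs of both types was 2257, 2429 and 3005 CPM in overexpression libraries and 2408, 1914 and 2126 CPM in controls. The summed level of 7 cortical pyramidal neuron genes was 53.6, 52.5 and 38.9 CPM in overexpression libraries, against 109, 55.7 and 18.3 CPM in controls. Control library 1 was thus the highest of all libraries and control library 3 the lowest. For microglia, the sum of 7 genes was 266, 205 and 77.6 CPM in overexpression libraries, with library 3 the lowest, and 251, 323 and 290 CPM in controls. All 7 genes of each of these 3 lists had rows, and none was under 1 CPM in all libraries. *Slc17a7*, of the cortical list, was above 1 CPM only in control library 1, at 1.35 CPM.

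SP9 belongs to the Sp family, whose members bind GC-rich elements, so the windows before the starts of the receptor genes are shown where RefSeq gave one (GRCm38.p6). Windows of 250 bases matched 3 of the 7 genes. The motif searched was the GC box GGGCGG on both strands (CCGCCC), and it is printed in capitals. The *Ntrk2* window, at chr13:58806319-58806568 on the plus strand, held 0 GC boxes. The *Ngfr* window held 4, of which 3 lie in the 213 bases printed, at chr11:95587736-95587948 on the minus strand, up to the first base of the GENCODE gene model. They are shown side by side as an abundant and a rare receptor of the same ligand family.

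Ntrk2: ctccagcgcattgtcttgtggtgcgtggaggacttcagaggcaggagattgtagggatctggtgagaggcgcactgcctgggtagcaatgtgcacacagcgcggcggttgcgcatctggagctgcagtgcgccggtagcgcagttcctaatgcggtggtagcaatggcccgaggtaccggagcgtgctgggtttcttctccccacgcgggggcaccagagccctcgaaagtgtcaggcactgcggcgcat
Ngfr: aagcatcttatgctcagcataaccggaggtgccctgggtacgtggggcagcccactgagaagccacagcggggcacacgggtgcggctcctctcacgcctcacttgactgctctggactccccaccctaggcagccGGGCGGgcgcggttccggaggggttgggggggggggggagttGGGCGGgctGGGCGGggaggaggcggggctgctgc

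The *Gfra1* window held 0 GC boxes and lay within the GENCODE gene model, and is not printed. Over all 32851 RefSeq windows of this length, 32.7% held the motif, and over the 13855 windows of genes tested here 56.8% did. A match is a description of these letters and not a binding site.

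The Trk receptor genes were highly expressed. *Ntrk2* (ENSMUSG00000055254) spans 58806569 to 59133970 on the plus strand of chromosome 13 (GRCm38, mm10). It was at 247, 218 and 211 CPM in overexpression libraries 1, 2 and 3, against 230, 205 and 226 CPM in control libraries 1, 2 and 3. The groups overlapped throughout, with the highest library in the overexpression group and the lowest among the controls. Means were 225 ± 19.4 CPM with extra *Sp9* and 220 ± 13.6 CPM without it (SD, n = 3 each). The difference on the log2 scale was 0.03 (standard error 0.08, adjusted p = 0.93 from limma). Its 95% interval, in which the scale is log2(CPM + 0.5), corresponds to a ratio of 0.905 to 1.15, so a larger rise or fall of *Ntrk2* lay outside the interval.

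*Ntrk3* (ENSMUSG00000059146) lies on chromosome 7 from 78175959 to 78738012, minus strand. It was at 163, 169 and 200 CPM in overexpression libraries, against 219, 146 and 164 CPM in controls. Both the highest and the lowest library were controls, so the overexpression values sat inside the control range. Means were 178 ± 19.7 CPM in overexpression libraries and 177 ± 37.9 CPM in control libraries (SD, n = 3 each). The log2 difference was 0.02 (standard error 0.15, adjusted p = 0.974 from limma), with an interval of 0.806 to 1.28 as a ratio. Control library 1, the highest for *Ntrk3* at 1.41 times the mean of the other controls, is also the library with the most cortical pyramidal neuron RNA. It was high for other genes too, such as *Lhx8* of cholinergic neurons, chosen after its values were seen, at 2.7 times that mean. Control library 2 had more cortical pyramidal neuron RNA than control library 3, at 55.7 against 18.3 CPM, but less *Ntrk3*. The part of that RNA in the *Ntrk3* level was not tested. In bulk tissue, fewer cells of a type and less RNA per cell cannot be told apart.

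Both Trk genes make transcripts for full-length and for truncated, kinase-lacking receptors, and the annotation (GENCODE M21) lists 10 transcripts of *Ntrk2* and 20 of *Ntrk3*. The values are 1 per gene, so these forms were summed. Per kilobase of annotated exon, *Ntrk2* averaged 11.7 ± 1 CPM per kb in the overexpression group and 11.4 ± 0.707 in the controls, and *Ntrk3* averaged 5.89 ± 0.654 CPM per kb in the overexpression group and 5.85 ± 1.25 in the controls (SD, n = 3 each). *Ntrk2* was 1.65 to 2.37 times as high as *Ntrk3* per kb in overexpression libraries and 1.64 to 2.19 times in controls, so it was the higher of the pair in all 6 libraries. Exon length here is the union over all transcripts, 19.3 kb for *Ntrk2* and 30.2 kb for *Ntrk3*, and understates the level of genes with many alternative exons.

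*Sort1* (ENSMUSG00000068747) lies on chromosome 3 from 108284082 to 108361511, plus strand. It encodes sortilin, an intracellular sorting receptor that also directs BDNF traffic. *Sort1* was at 212, 218 and 242 CPM in overexpression libraries, against 221, 207 and 223 CPM in controls, with overlap between the groups. Means were 224 ± 15.8 CPM in overexpression libraries and 217 ± 8.93 CPM in control libraries (SD, n = 3 each), the smallest relative spread among the receptors in the controls, at 4.12%. The log2 difference of 0.05 (standard error 0.06, adjusted p = 0.874 from limma) had an interval of 0.931 to 1.14 as a ratio, the narrowest of the 7.

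*Ngfr* (ENSMUSG00000000120), on chromosome 11 from 95568818 to 95587735 on the minus strand, was rare. It was at 1.33, 0.717 and 0.588 CPM in overexpression libraries, from 34, 16 and 13 reads. The controls had 1, 0.995 and 0.799 CPM, from 20, 20 and 18 reads. The overexpression values enclosed those of the controls. Counting alone allowed 0.92 to 1.86 CPM for overexpression library 1 and 0.41 to 1.16 CPM for library 2 (exact Poisson 95% intervals, counting error only), so these intervals overlapped. The log2 difference was -0.09 (standard error 0.24, adjusted p = 0.937 from limma), and its interval of 0.64 to 1.38 as a ratio leaves a wide range. *Sort1* exceeded *Ngfr* per kb by 72.6 to 187 times in overexpression libraries and by 94.5 to 127 times in controls, so sortilin mRNA was far in excess of p75 mRNA in every library.

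**Figure D1:**
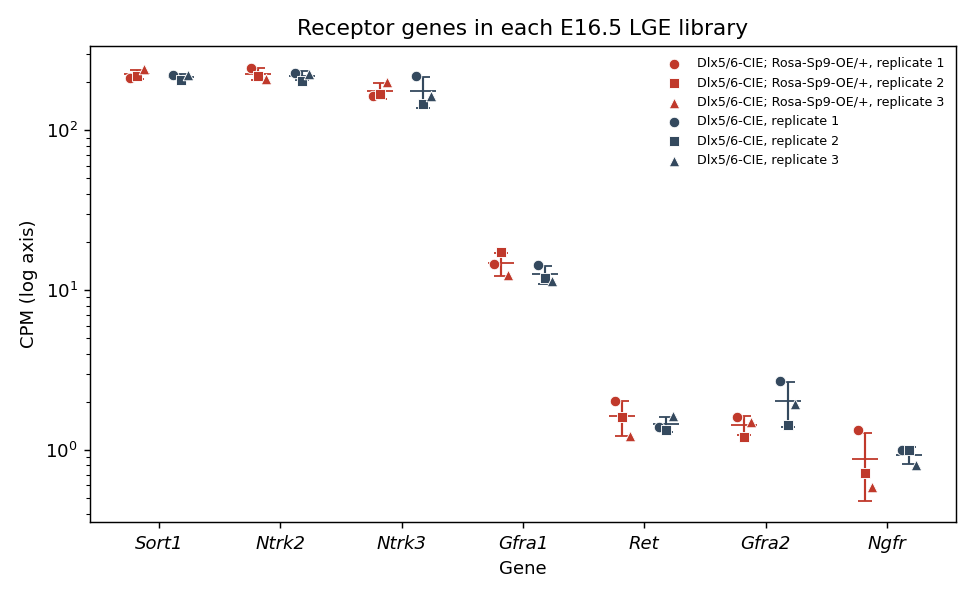
CPM of each receptor gene in each library, on a log axis, with *Dlx5/6-CIE; Rosa-Sp9-OE/+* in red at the left of each pair and *Dlx5/6-CIE* in dark blue at the right. Points are libraries (marker shape gives the replicate number), horizontal marks are means and bars are SDs (n = 3). *Sort1*, *Ntrk2* and *Ntrk3* lie between 146 and 247 CPM, *Gfra1* between 11.4 and 17.2 CPM, and the other 3 genes at 2.71 CPM or less, with the groups overlapping for every gene.

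Of the 3 GDNF receptor genes described here, *Gfra1* was the most abundant. *Gfra1* (ENSMUSG00000025089) lies on chromosome 19 from 58235604 to 58455909, minus strand. It was at 14.5, 17.2 and 12.4 CPM in overexpression libraries, against 14.3, 11.9 and 11.4 CPM in controls. The 2 highest libraries were of the overexpression group, but its library 3 lay below control library 1. Means were 14.7 ± 2.38 CPM in overexpression libraries and 12.5 ± 1.58 CPM in control libraries (SD, n = 3 each). The log2 difference was 0.22 (standard error 0.14, adjusted p = 0.794 from limma), the highest of the 7, with an interval of 0.925 to 1.46 as a ratio. Against control library 3 alone, the only control with low *Xist*, all 3 overexpression libraries were higher, and the mean log2 difference was 0.345. That comparison rests on a single control, which was also the library with the least cortical pyramidal neuron RNA. Without overexpression library 2, the highest for *Gfra1*, the log2 difference from all 3 controls was 0.10 (adjusted p = 0.926 from limma).

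*Gfra2* (ENSMUSG00000022103), on chromosome 14 from 70890120 to 70979838 on the plus strand, was low. It was at 1.6, 1.21 and 1.49 CPM in overexpression libraries, from 41, 27 and 33 reads. In the controls it was at 2.71, 1.44 and 1.95 CPM, from 54, 29 and 44 reads. Control library 1 was the highest and overexpression library 2 the lowest, while control library 2 lay among the overexpression values. The mean was 1.44 ± 0.202 CPM in overexpression libraries and 2.03 ± 0.636 CPM in control libraries (SD, n = 3 each). The log2 difference was -0.36 (standard error 0.22, adjusted p = 0.788 from limma), with an interval of 0.546 to 1.11 as a ratio of CPM + 0.5. The added 0.5 shrinks the difference of so low a gene, and edgeR on recovered reads gave -0.50 (adjusted p = 0.805). Without control library 1 the limma difference was -0.18 (adjusted p = 0.725 from limma), smaller but of the same sign. For the highest library, control library 1, the Poisson 95% interval was 2.03 to 3.53 CPM. It lay above that of the lowest, overexpression library 2, at 0.797 to 1.76 CPM. The intervals of control libraries 2 and 3, 0.966 to 2.07 and 1.42 to 2.62 CPM, overlapped those of all overexpression libraries.

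*Ret* (ENSMUSG00000030110) lies on chromosome 6 from 118151745 to 118197718, minus strand. It was at 2.03, 1.61 and 1.22 CPM in overexpression libraries, from 52, 36 and 27 reads, against 1.4, 1.34 and 1.64 CPM in controls, from 28, 27 and 37 reads. The overexpression values again enclosed those of the controls. The log2 difference was 0.10 (standard error 0.20, adjusted p = 0.913 from limma), with an interval of 0.781 to 1.47 as a ratio. *Ret* starts 5.12 Mb from *Gt(ROSA)26Sor*, the noncoding gene of the knock-in locus, which runs from 113067428 to 113077333 on the same chromosome. Within 40 Mb of that start, limma gave an unadjusted p under 0.05 to 60 of 440 genes (13.6%), against 752 of 14326 (5.25%) on other chromosomes. *Ret*, with an unadjusted p = 0.633 from limma, was not among them.

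Per kb of exon, the GDNF co-receptor mRNA exceeded that of the kinase it works with. *Gfra1* per kb was 8.83 to 13.1 times as high as *Ret* in overexpression libraries and 8.54 to 12.6 times in controls. For *Gfra2* over *Ret* the ratio per kb was 1.43 to 2.33 in overexpression libraries and 2.05 to 3.68 in controls. By CPM, *Gfra2* was below *Ret* in overexpression libraries 1 and 2, at 1.6 and 1.21 against 2.03 and 1.61. It was above *Ret* in overexpression library 3 and in the controls. In overexpression libraries 1 and 2 the order per kb thus rests on exon length, 3.54 kb for *Gfra2* and 6.76 kb for *Ret*. *Gfra4*, a co-receptor gene of the same family that was chosen after its values were seen, was higher than *Gfra1* per kb in all 6 libraries, at 4.5 ± 0.31 CPM per kb in the overexpression group and 4.11 ± 1.09 in the controls (SD, n = 3 each). By CPM the order was the reverse in all 6 libraries. *Gfra4* was at 10.4, 9.77 and 9.05 CPM in overexpression libraries and 11.6, 7.96 and 7.15 CPM in controls. The order per kb thus rests on exon length, 2.17 kb for *Gfra4* and 5.48 kb for *Gfra1*. *Nrtn*, which encodes neurturin, the ligand of GFRα2, was chosen after its values were seen. It was at 0.742, 0.627 and 0.317 CPM in overexpression libraries, from 19, 14 and 7 reads. The controls had 1.65, 1.04 and 0.222 CPM, from 33, 21 and 5 reads. Control library 1 was thus the highest for the ligand, as for *Gfra2* and for 30 (44.1%) of the 68 pathway genes described below. *Gdnf*, *Bdnf*, *Ntf3* and *Ntf5* had no row among the values used.

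Ordered by level per kb of exon, *Sort1* came first, at 29.6 ± 2.09 CPM per kb in the overexpression group and 28.6 ± 1.18 in the controls, higher than 89.4% of 15137 genes with a length. *Ntrk2* was above 70.2% of genes and *Ntrk3* above 52%. *Gfra1* followed at 2.68 ± 0.435 CPM per kb in the overexpression group and 2.29 ± 0.288 in the controls, above 32.6% of genes. *Gfra2* was at 0.405 ± 0.0572 CPM per kb in overexpression libraries and 0.575 ± 0.18 in controls, and *Ngfr* at 0.255 ± 0.115 in overexpression libraries and 0.271 ± 0.0335 in controls. *Ret* was at 0.24 ± 0.0599 CPM per kb in overexpression libraries and 0.216 ± 0.0234 in controls (SD, n = 3 each). The library values of *Ngfr* and *Ret* overlapped in each group, and the mean of *Gfra2* lay above both of their means. By CPM, the mean of *Ret* was above that of *Gfra2* in the overexpression group, at 1.62 against 1.44. These 3 ranked above 9.19%, 3.61% and 2.83% of genes, for *Gfra2*, *Ngfr* and *Ret*. The order of the first 4 genes per kb was the same in all 6 libraries. The place of *Sort1* above *Ntrk2* rests on exon length, 7.57 kb against a union of 19.3 kb. By CPM they were alike, with means of 224 for *Sort1* and 225 for *Ntrk2* in the overexpression group. In the controls these means were 217 and 220 CPM.

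The spread between libraries exceeded counting error for the abundant genes. For *Ntrk3*, counting alone gives a coefficient of variation of 1.56% in the overexpression group and 1.67% in the controls, and the observed values were 11.1% in the overexpression group and 21.4% in the controls. For *Gfra1*, counting gives 5.46% in the overexpression group, where 16.2% was observed, and 6.21% in the controls, where 12.6% was observed. For the rare genes the order was mixed. *Ret* varied by 25% in the overexpression group, where counting gives 16.7%, and by 10.8% in the controls, where counting gives 18.2%, so the observed value lay above counting error in the overexpression group and below it in the controls. *Ngfr* varied by 45% in the overexpression group, where counting gives 23.7%, and by 12.4% in the controls, where counting gives 22.8%. *Gfra2* varied by 14.1% in the overexpression group, where counting gives 17.5%, and by 31.3% in the controls, where counting gives 15.9%. With 3 libraries a group these spreads are themselves rough.

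**Figure D2:**
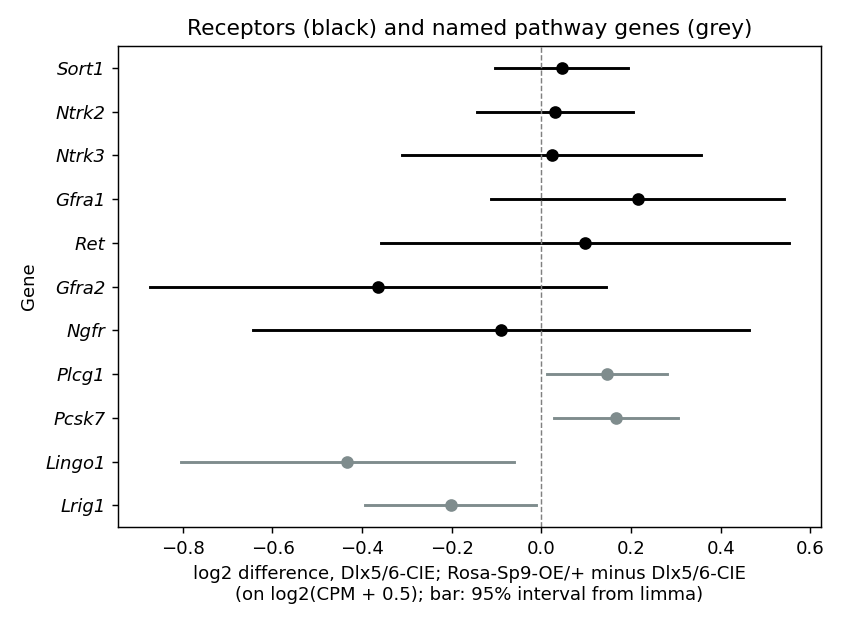
Log2 difference of each receptor gene (black) and of 4 named pathway genes (grey), *Dlx5/6-CIE; Rosa-Sp9-OE/+* minus *Dlx5/6-CIE*, on log2(CPM + 0.5), with 95% intervals from limma (n = 3 each). All 7 receptor intervals include 0, from the narrowest for *Sort1* to the widest for *Ngfr*. *Plcg1*, *Pcsk7*, *Lingo1* and *Lrig1* were named for an unadjusted p under 0.05 from limma. Their intervals, not adjusted over all genes, exclude 0 by that choice.

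Across the 7 receptor genes with values, 0 were called at an adjusted p under 0.05 by limma, as were 0 by edgeR and 0 by DESeq2 on recovered reads, and limma gave 0 of them an unadjusted p under 0.05. Over all 15102 genes, limma called 4 (0.0265%), edgeR called 5 (0.0331%) and DESeq2 called 34 of 15094 (0.225%), while limma gave 834 (5.52%) an unadjusted p under 0.05. The groups overlapped for all 7 receptors, where 1690 of all genes (11.2%) had groups that did not overlap. The 7 differences ran from -0.36 for *Gfra2* to 0.22 for *Gfra1*, with a median of 0.03 beside 0.00 for all genes, and 5 were higher by value and 2 lower. Their median absolute difference was 0.09, beside 0.09 over all genes.

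The wider pathway was read from 5 lists of 77 genes by role, of which 68 had rows and were tested, and 0 of these passed in either direction by limma, edgeR or DESeq2. At an unadjusted p under 0.05 from limma, 2 were higher and 2 lower, 5.88% of the 68, close to the share over all genes. They are the pathway genes described next, chosen for that p. *Plcg1*, encoding phospholipase Cγ1, which docks on activated Trk receptors, was at 334, 341 and 370 CPM in overexpression libraries, against 319, 303 and 322 CPM in controls. The groups did not overlap, and the log2 difference was 0.15 (standard error 0.06, adjusted p = 0.788 from limma). *Pcsk7*, encoding a proprotein convertase of the furin family, was at 45, 43.5 and 47.3 CPM in overexpression libraries, against 39.9, 41.1 and 39.7 CPM in controls. Its log2 difference was 0.17 (standard error 0.06, adjusted p = 0.788 from limma), also without overlap. Of the *Pcsk7* and *Plcg1* exons, parts overlap exons of listed genes on the opposite strand (415 bases with *Rnf214* and 108 with *Tagln*, and 379 with *Zhx3*). The kit marks strand, but the strand setting of the counting is not stated in the labels or methods.

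*Lingo1*, encoding a partner of p75 and of the Nogo receptor, was at 26.4, 27.2 and 31.5 CPM in overexpression libraries, against 50.4, 33 and 33.8 CPM in controls. All overexpression libraries lay below all controls, but control library 1 was far above the other controls. The log2 difference was -0.43 (standard error 0.16, adjusted p = 0.788 from limma), and -0.24 without control library 1 (adjusted p = 0.348 from limma). *Lrig1*, encoding a membrane protein that restrains RET and other receptor tyrosine kinases, was at 25.3, 23.2 and 21.6 CPM in overexpression libraries, against 28.3, 26.2 and 26.2 CPM in controls. Its log2 difference was -0.20 (standard error 0.08, adjusted p = 0.788 from limma), without overlap. Of its exons, 144 bases overlap those of *Slc25a26* on the opposite strand. *Lrig1* starts 18.4 Mb from *Gt(ROSA)26Sor* on chromosome 6, within the 40 Mb that held more low p-values than other chromosomes. A difference in genetic background there cannot be told apart from the genotype.

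By list, 5 of 7 other ligands and receptors of the families were higher by value, with a median log2 difference of 0.09. Of 22 adaptors and signal transducers of Trk and RET, 18 were higher by value and 4 lower, with a median of 0.07 and a range of -0.08 to 0.19. Over all genes tested, 7575 were higher by value and 7527 lower. Genes of a list are read in the same libraries, so such counts are not independent. The 12 genes of p75 signaling and pro-neurotrophin processing split into 6 higher and 6 lower, with a median of 0.00. The 14 co-receptors and negative regulators split into 7 higher and 7 lower, with a median of -0.01. Among 13 transcriptional targets of Trk and ERK signaling, 5 were higher and 8 lower, with a median of -0.05. In all, 8 of the 68 genes (11.8%) had groups that did not overlap, 5 higher and 3 lower, near the 11.2% over all genes.

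**Figure D3:**
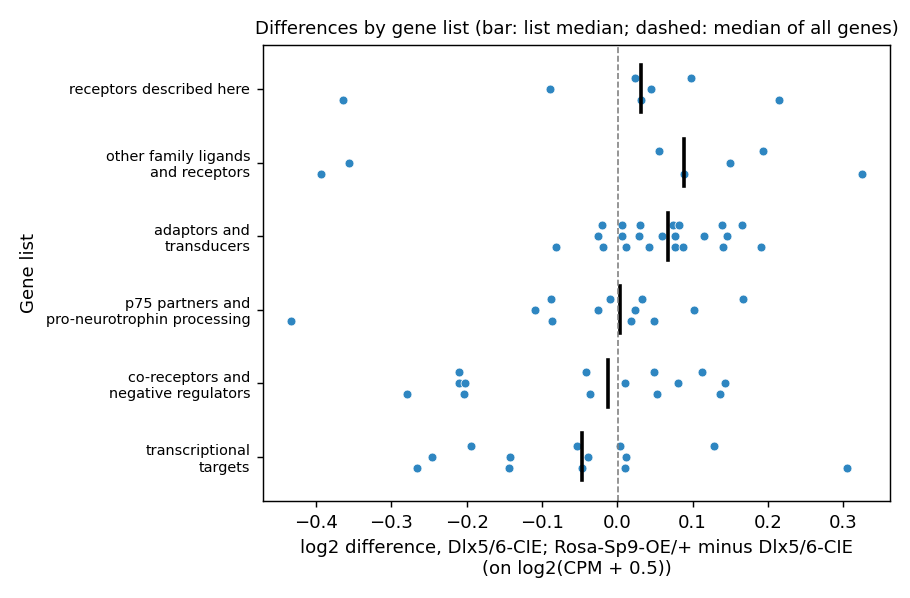
Log2 difference, *Dlx5/6-CIE; Rosa-Sp9-OE/+* minus *Dlx5/6-CIE*, on log2(CPM + 0.5) for each gene (points) of the receptors described here and of 5 pathway lists, with the list median (black bar) and the median of all genes (dashed line). The list medians run from -0.05 for the transcriptional targets to 0.09 for the other family ligands and receptors, and the single genes from -0.43 for *Lingo1* to 0.33 for *Sorl1*.

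The libraries within a group differed in which pathway genes were high, a pattern chosen after its values were seen. Of the 68 pathway genes, 54 (79.4%) had their highest level in overexpression library 3 or control library 1, against 44.2% of all genes tested. For the adaptors and transducers this was 20 of 22, with 12 highest in overexpression library 3 and 8 in control library 1, and 14 of the 22 (63.6%) were lowest in control library 2, against 22.8% of all genes tested. Of the 13 transcriptional targets, 8 (61.5%) were highest in control library 1, against 17.8% of all genes tested. *Vgf*, a neurotrophin-induced secretory gene, was at 5.51, 6.41 and 5.07 CPM in overexpression libraries, against 15.4, 3.58 and 4.31 CPM in controls. Of the 7 receptor genes, 3 (42.9%) were highest in those libraries, close to the share over all genes. The same libraries differed in cell type markers. Overexpression library 3 had the highest sum of MSN markers, at 3005 CPM, and the lowest sum of radial glia markers, at 1674 CPM, where the other overexpression libraries had 1985 and 1966 CPM and the controls 1855, 2250 and 2112 CPM. Control library 2 had the lowest MSN sum and the highest radial glia sum. Not every gene followed its sum. Of the MSN list, *Ppp1r1b* and *Rarb* were highest in control library 1, at 32 and 96.1 CPM. Of the radial glia list, *Hes1* and *Sox2* were lowest in control library 1, at 4.71 and 195 CPM. The part of tissue composition in the levels of the pathway genes was not tested.

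**Figure D4:**
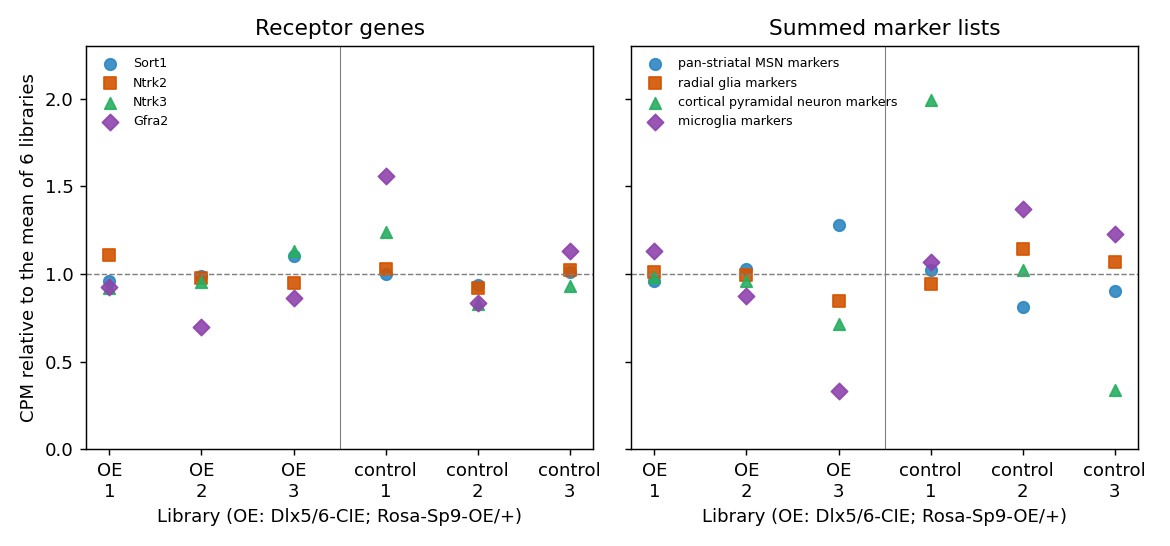
Level of 4 receptor genes (left) and of 4 summed marker lists (right) in each library, relative to the mean of the 6 libraries, with *Dlx5/6-CIE; Rosa-Sp9-OE/+* (OE) at the left of the vertical line and *Dlx5/6-CIE* (control) at its right. In control library 1, *Gfra2* is at 1.56, *Ntrk3* at 1.24 and the cortical pyramidal neuron markers at 1.99 times the mean, while *Sort1* stays between 0.937 and 1.1 in all libraries.

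For each receptor, the gene with the most similar pattern over the 6 libraries was found by Pearson's r on log2(CPM + 0.5) among genes with a mean of at least 5 CPM. These were *Pde8b* for *Ntrk2* (r = 0.979), *Adam23* for *Ntrk3* (r = 0.997), *Slc43a2* for *Ngfr* (r = 0.980) and *Nedd4l* for *Sort1* (r = 0.995). For the GDNF receptors they were *Rap2c* for *Gfra1* (r = 0.983), *Fam174b* for *Gfra2* (r = 0.997) and *Htra2* for *Ret* (r = 0.983). The points share library and tissue composition, and with 6 libraries and at least 10860 genes searched high values are common. An r above 0.9 was reached by 497 genes for *Sort1* and 273 for *Ntrk3*, against 21 for *Ret*.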

How the data were processed

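The 6 libraries of E16.5 LGE were made by the authors with a stranded total RNA kit after removal of ribosomal RNA. Per the submitters' processing notes the build was mm10. For aligner and counter, names are not stated in these sources. Deposited by the authors were CPM values of 15168 genes, and within each library the values are whole multiples of 1 read (100.00% within a tolerance of 0.1 read plus rounding), from which reads were recovered. Columns of the authors' own comparison, which hold a mean log CPM, fold changes and p-values, were not used. Replicates of a group differed by more than sampling noise (chi-square per degree of freedom of 5.74 to 15.8 in the overexpression group and 11.2 to 17.5 in the controls).

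Genes reaching 0.5 CPM in 3 or more libraries were compared between all 6 libraries by limma 3.58.1 (R 4.3.3, with an intensity trend) on log2(CPM + 0.5), which understates changes of low genes, with genotype as the only term, Benjamini-Hochberg adjustment over all 15102 genes and a threshold of 0.05. A gene at 3 against 3 libraries cannot go below p = 0.1 in an exact two-sided permutation test. The quasi-likelihood test of edgeR 4.0.16 and DESeq2 1.42.0, on recovered reads, were alternatives. The others were median-of-ratios scaling, the replicate number as a block, *Xist* as a covariate, other filters and pseudocounts, a threshold of 0.01, and each library left out. The fit was tested on simulated data. Positions and exon lengths came from GENCODE M21 on GRCm38. The genes and lists were chosen with earlier results of these data known. The receptors were all named. Of the pathway lists, up to 4 genes per list with the lowest unadjusted p under 0.05 and a mean of at least 1 CPM were named. Some genes of the lists are counted in them but not reported here by name.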

Additional observations from a re-analysis of the deposited data

How the results depend on the processing

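Under every alternative that gave a value, 0 of the 7 receptor genes and 0 of the 68 pathway genes passed the threshold. *Ngfr* did not pass the filter at 1 CPM and has no value there. The number of genes called over all genes was 4, and 34 by DESeq2. Leaving out 1 library gave 3 to 15, with 15 without control replicate 1 and 11 without control replicate 3. The differences of *Gfra1* (0.101 to 0.357), *Gfra2* (-0.541 to -0.180), *Lingo1*, *Lrig1*, *Plcg1* and *Pcsk7* kept their direction in every alternative. *Lingo1*, *Lrig1*, *Plcg1* and *Pcsk7* had been chosen for a low unadjusted p from limma. The differences of the other 5 receptors, all near 0, changed sign in some. With *Xist* as a covariate the log2 difference was -0.017 for *Ntrk2*, 0.032 for *Ngfr* and -0.048 for *Ret*, and with control library 3 as the only control it was -0.009, 0.048 and -0.032 for these genes. Leaving out 1 library gave -0.038 to 0.076 for *Ntrk2*, -0.101 to 0.189 for *Ntrk3*, -0.313 to 0.062 for *Ngfr*, -0.011 to 0.084 for *Sort1* and -0.039 to 0.240 for *Ret*. The cause was not tested. Replicates with the same number did not deviate together (correlations of -0.104, 0.202 and 0.083 for numbers 1, 2 and 3), so the numbers were not taken to pair the samples, and with the replicate number as a block 3 genes were called, 0 of them a receptor or pathway gene. *Ngfr*, *Ret* and *Gfra2* had 13 to 54 reads per library, so counting error is a sizeable part of their spread, which went beyond it in the overexpression group for *Ngfr* and *Ret* and in the controls for *Gfra2*.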
